A study of Mus musculus with 6 samples.

Results

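The genes described here encode the proteins of the mitochondrial ribosome (mitoribosome). They were taken by gene symbol, as all probes whose symbol begins with Mrpl or Mrps followed by a number. This gave 105 probes for 72 genes, 44 with an Mrpl and 28 with an Mrps symbol, out of 25697 probes for 18138 symbols on the array. After a filter on dim probes, 86 probes for 66 of the genes could be tested, out of 13841 probes. Lungs were compared between 3 hSRY-OFF and 3 hSRY-ON mice, all of them males of the strain FVB (FVB/N in the study's methods) at postnatal day 6. Per the study's methods, both names refer to a single-copy Signalox-hSRY transgene driven by the broadly active CAG promoter. In hSRY-OFF mice the transgene was not recombined, so the promoter drove the red fluorescent protein DsRed2, and in hSRY-ON mice Cre recombinase had placed a FLAG-tagged human SRY with EGFP behind it. The recombinase came from the eggs of Ddx4-Cre mothers. Only hSRY-ON animals that had not inherited Ddx4-Cre were taken for the arrays. The study also calls littermates without the transgene controls, so that the hSRY-OFF mice carried it rests on their label.

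The mitoribosome makes the few proteins that are encoded by mitochondrial DNA, all of them subunits of the respiratory chain and the ATP synthase. Its RNAs come from mitochondrial DNA, whereas every one of its proteins is encoded in the nucleus, made in the cytosol and imported. The large subunit joins amino acids and holds the exit tunnel, and the small subunit binds the messenger RNA. Many of the proteins descend from bacterial ribosomal proteins, and others occur only in mitochondria. The symbol tells the subunit with a few exceptions. The products of Mrps18a and Mrps30 sit in the large subunit despite their names, and they were counted there, which gave 46 large-subunit and 26 small-subunit genes.

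Each mouse gave 1 array of the Illumina MouseRef-8 BeadChip, on which a probe is a bead type whose brightness reports the amount of a transcript. Values are log2 of background-corrected and quantile-normalized intensities, and a change is the hSRY-ON mean minus the hSRY-OFF mean on that scale. Between 13191 and 14134 probes per array were detected above the negative controls. With 6 arrays, the precision of all values is limited by their number. The labels do not say whether the mice of a group came from separate litters, so p-values measure the spread between these 6 samples. All 8 lung epithelium genes examined, such as those for the surfactant proteins, were detected on the arrays. In whole lung, fewer cells of a type and less RNA per cell cannot be told apart.

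Some promoter features, which the choice by symbol did not use, were more frequent among the members than among all protein-coding genes. RefSeq promoters (build GRCm38.p6, from 250 bases before to 50 bases after the start) matched 63 of the 72 genes. Short motifs were searched on both strands, each named for factors known to act on nuclear genes of mitochondrial proteins or on growth genes. The ETS motif CCGGAAG, which the GA-binding protein recognises, was in 23 member promoters (36.5%) and in 11.9% of 17491 promoters of protein-coding genes. The motif AAGATGG of YY1 was in 12 (19.0%) against 6.37%, and the motif CGCATGCG of NRF1 in 7 (11.1%) against 2.54%. The E-box CACGTG was in 5 (7.94%) against 7.90%. At least 1 of the 4 motifs was in 36 member promoters (57.1%) and in 25.2% of all. A match to these letters is a description and does not show a bound site. Promoters of 3 genes to which the results return are given 5′ to 3′ on the strand of the gene, with motif matches in capitals. Mrpl51 (chr6:125191950-125192249, plus strand) and Mrpl49 (chr19:6057706-6058005, minus strand) had the largest falls, and Mrpl22 (chr11:58171414-58171713, plus strand) lay just outside the threshold. The capitals in Mrpl51 mark ETS, those in Mrpl49 mark YY1 at 2 places, and those in Mrpl22 mark ETS and then NRF1.
Mrpl51: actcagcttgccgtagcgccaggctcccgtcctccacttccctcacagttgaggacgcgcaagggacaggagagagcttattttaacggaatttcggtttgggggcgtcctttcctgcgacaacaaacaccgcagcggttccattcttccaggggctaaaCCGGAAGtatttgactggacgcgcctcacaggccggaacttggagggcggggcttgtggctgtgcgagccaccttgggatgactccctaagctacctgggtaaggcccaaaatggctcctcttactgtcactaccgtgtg
Mrpl49: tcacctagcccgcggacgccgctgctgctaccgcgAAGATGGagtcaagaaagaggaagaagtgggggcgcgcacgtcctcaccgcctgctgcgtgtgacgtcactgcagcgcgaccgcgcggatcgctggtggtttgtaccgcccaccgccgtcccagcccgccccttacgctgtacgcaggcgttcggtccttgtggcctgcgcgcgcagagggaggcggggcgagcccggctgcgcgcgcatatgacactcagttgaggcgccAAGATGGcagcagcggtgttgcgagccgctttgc
Mrpl22: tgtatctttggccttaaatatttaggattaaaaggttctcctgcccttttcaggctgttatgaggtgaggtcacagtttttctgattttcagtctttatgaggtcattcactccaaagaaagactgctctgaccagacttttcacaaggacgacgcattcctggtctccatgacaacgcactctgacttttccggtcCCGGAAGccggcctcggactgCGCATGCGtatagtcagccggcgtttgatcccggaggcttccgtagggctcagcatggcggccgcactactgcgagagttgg

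Few mitoribosomal transcripts differed between the groups, and those that did were all lower in hSRY-ON lungs. Of the 86 probes tested, 8 (9.30%) had an adjusted p under 0.05 in a two-sided limma test with Benjamini-Hochberg adjustment over all probes tested, whereas 26.9% of all probes on the array did. The 8 probes were lower in hSRY-ON, where 13.3% of all probes were called lower. None was higher, where 13.6% of all probes were called higher. At an unadjusted p under 0.05 the number of member probes was 21 (24.4%), beside 40.9% of all probes. The 8 probes belonged to 6 genes, namely Mrpl16, Mrpl49 and Mrpl51 of the large subunit and Mrps6, Mrps7 and Mrps25 of the small subunit. With each gene read by its brightest tested probe, 4 of 66 genes (6.06%) were called, beside 27.9% of all genes. The count rested on single arrays. Leaving out replicate 1, 2 or 3 of hSRY-OFF gave 2, 2 and 3 calls. Leaving out replicate 2 of hSRY-ON gave 2 calls and leaving out its replicate 1 gave 11, and all of these calls were lower. It also rested on the background correction. Without it 17 member probes (19.8%) were called, beside 29.6% of all probes. Of these members 15 were lower and 2 higher, where 15.0% of all probes were called lower. In that fit the members were called lower no less often than all probes.

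The fitted changes of the members were small. They ran from -1.20 to 0.33, and their median absolute size was 0.19 beside 0.32 for all probes tested. The change lay within 0.5 in either direction for 73 probes (84.9%), beside 67.7% of all probes. The 95% confidence interval of the change stayed inside 2-fold in either direction for 76 probes (88.4%), beside 70.7% of all. Below 0 were 60 of the 86 fitted changes (69.8%), beside 53.2% of all, and the median was -0.17 beside -0.03. The groups did not overlap in 34 member probes (39.5%), 27 of them lower and 7 higher in hSRY-ON, beside 46.6% of all probes.

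**Figure D1:**
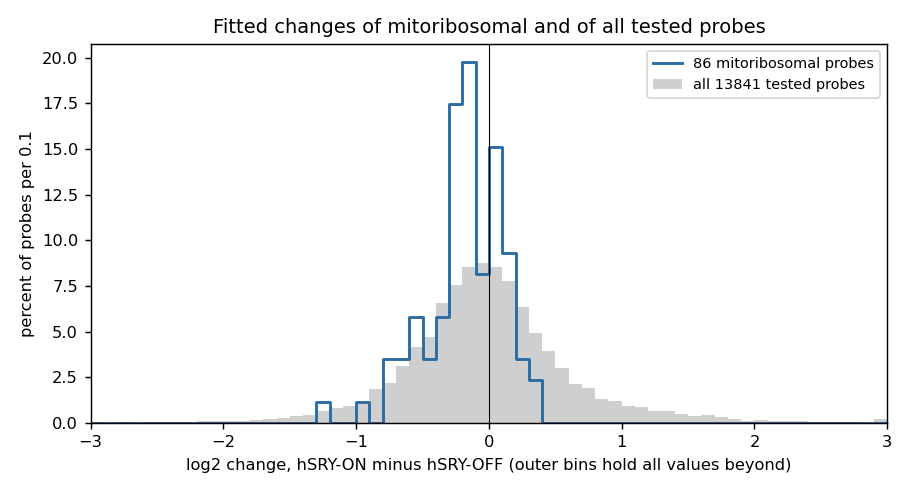
Distribution of fitted log2 changes, hSRY-ON minus hSRY-OFF, as the percent of probes in bins of 0.1, for the 86 mitoribosomal probes (blue line) and all 13841 probes tested (grey bars). The mitoribosomal probes sit in a narrower band, from -1.20 to 0.33, with their median at -0.17.

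Mrpl51 had the largest change of any member. Its product is a mitochondria-specific protein of the large subunit. The called probe (ILMN_2645772) read 7.29, 6.64 and 6.69 on the hSRY-OFF arrays and 6.08, 5.53 and 5.41 on the hSRY-ON arrays. All hSRY-ON values lay below all hSRY-OFF values, and the spread was alike in both groups. The change was -1.20 with an SE of 0.24 (limma, adjusted p = 0.0130), which is 0.435 times the hSRY-OFF level and the only fitted member change of at least 2-fold. The probe is dim, and without background correction its change was -0.44 and still called. A second tested probe of Mrpl51, detected on 3 of the 6 arrays, read from 4.83 to 5.77 and changed by -0.11 (SE 0.27, limma adjusted p = 0.794).

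Mrpl49 also encodes a mitochondria-specific protein of the large subunit, and it was read by 4 tested probes. Probe ILMN_2701363 gave 7.53, 7.56 and 7.58 in hSRY-OFF and 6.72, 6.36 and 6.61 in hSRY-ON. The hSRY-OFF arrays agreed closely, and every hSRY-ON array was lower by more than that spread. Its change was -0.995 (SE 0.131, limma adjusted p = 0.00338), which was the smallest adjusted p among the members. It was -0.49 without background correction and called there too. The other probes changed by -0.68 (adjusted p = 0.0205), -0.55 (adjusted p = 0.0472) and -0.37 (adjusted p = 0.115) in the same limma fit, and in none of the 4 did the groups overlap. The call of the first of these was lost without hSRY-OFF replicate 1 or 2 or hSRY-ON replicate 2, and that of the second in 5 of the 6 fits with an array left out, with limma adjusted p-values of up to 0.0731 and 0.156. The second was also lost without background correction or with cyclic loess. The probe with the smallest of these changes was the brightest, so Mrpl49 is not among the genes called by their brightest probe.

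Mrpl16 encodes the counterpart of bacterial ribosomal protein L16, which lies close to the site where the peptide bond is made. Its probe read 8.44, 8.32 and 8.54 in hSRY-OFF and 7.70, 7.61 and 8.03 in hSRY-ON. The groups were apart, with hSRY-ON replicate 3 the nearest to hSRY-OFF. The change was -0.65 (SE 0.15, limma adjusted p = 0.0196). The call was lost when replicate 1, 2 or 3 of hSRY-OFF or replicate 2 of hSRY-ON was left out, with limma adjusted p-values of 0.0541 to 0.0742.

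Mrps6 encodes a small-subunit protein of bacterial ancestry. It read 10.41, 10.50 and 10.79 in hSRY-OFF and 10.29, 9.47 and 9.59 in hSRY-ON. In hSRY-ON replicate 1 it was close to the hSRY-OFF arrays, while the other two were clearly lower. The change was -0.78 (SE 0.23, limma adjusted p = 0.0468). Mrps7, the counterpart of a bacterial protein that organises the head of the small subunit, had probes that disagreed. Probe ILMN_2981821 read 8.26, 8.28 and 8.21 in hSRY-OFF and 7.94, 7.59 and 7.38 in hSRY-ON, a change of -0.61 (SE 0.16, limma adjusted p = 0.0314). Its brighter probe ILMN_2981818 read 10.63, 10.39 and 10.60 against 10.52, 10.38 and 10.63, a change of -0.02 (adjusted p = 0.904), so that the groups overlapped. Mrps25 encodes a mitochondria-specific small-subunit protein. Its brighter probe read 8.38, 8.30 and 8.17 in hSRY-OFF and 7.53, 7.68 and 8.04 in hSRY-ON, a change of -0.53 (SE 0.16, limma adjusted p = 0.0474). Its other tested probe changed by -0.29 (limma adjusted p = 0.228), with hSRY-ON replicate 2 inside the hSRY-OFF range. Each of these 3 calls held in 1 of the 6 limma fits with an array left out. For Mrps6 and Mrps7 that was the fit without hSRY-ON replicate 1, with adjusted p-values elsewhere of up to 0.138 and 0.104, and for Mrps25 the fit without hSRY-ON replicate 3, with up to 0.154 elsewhere. Cyclic loess normalization ended the calls of Mrps6 and Mrps25.

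**Figure D2:**
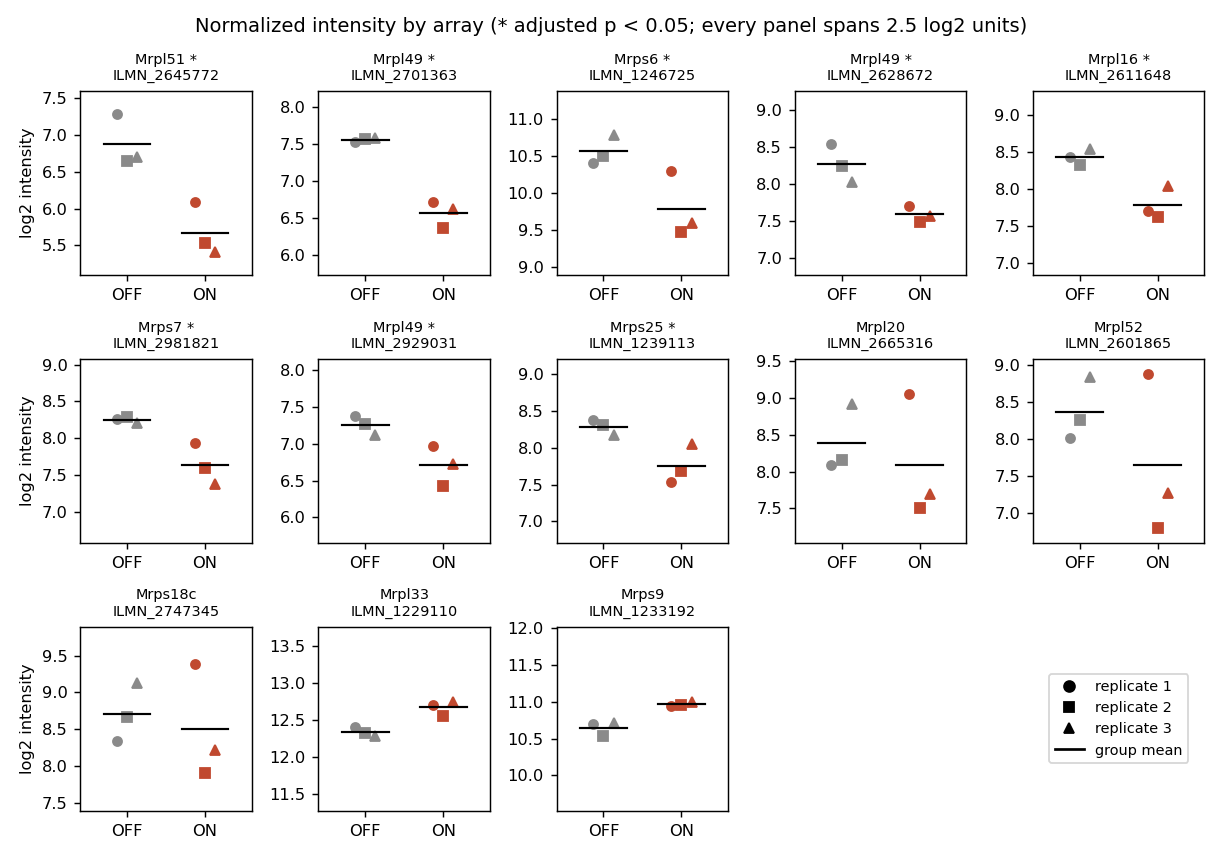
Normalized log2 intensity on each of the 6 arrays for the 8 called probes (marked with a star), for 3 probes with a wide spread and for the 2 largest fitted rises, with hSRY-OFF in grey, hSRY-ON in red, symbols for the replicates and bars for group means. The groups are apart in the called probes, and in Mrpl20, Mrpl52 and Mrps18c hSRY-ON replicate 1 is the highest of the 6 arrays.

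Near the threshold the picture continued in the same direction. The first probes outside it were those of Mrpl22 (adjusted p = 0.0515, change -0.52), Mrpl3 (adjusted p = 0.0526, change -0.46) and Mrps11 (adjusted p = 0.0532, change -0.47) in the limma fit, none of which can be called. They were called lower in 8, 7 and 7 of 16 alternatives. These 3 genes, like the others named in this and the next paragraph, were picked out after their values were seen. Mrpl3 was read by a second, brighter probe that changed by -0.07 (limma adjusted p = 0.702), whereas the second probe of Mrps11 changed by -0.43 (limma adjusted p = 0.0640). Mrps15, the counterpart of a bacterial protein that binds the ribosomal RNA early in assembly, was detected in hSRY-OFF, at 5.51, 5.82 and 6.65, but on no hSRY-ON array. Measured means were 5.99 and 5.23. With any hSRY-ON value below the lowest detected value raised to it, the means differed by 1.51-fold, which does not allow for the spread between arrays. The fall was not called (limma adjusted p = 0.0804). The 95% confidence interval of the fitted change of Mrps15 ran from -1.42 to -0.11. Its probe passed the detection filter only through the hSRY-OFF arrays, where it was higher, so the direction of its change carries no weight. Without background correction the change was -0.23.

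On the other side, the largest fitted rises were not called. Mrpl33 encodes a small protein of the large subunit. Its brightest probe read 12.41, 12.32 and 12.29 in hSRY-OFF and 12.70, 12.56 and 12.75 in hSRY-ON, without overlap, and the change was 0.33 (SE 0.11, limma adjusted p = 0.0721). The other Mrpl33 probe changed by 0.16 (limma adjusted p = 0.409). Mrps9, the counterpart of a bacterial protein whose tail reaches the decoding centre of the small subunit, read 10.69, 10.54 and 10.71 in hSRY-OFF and 10.94, 10.96 and 11.00 in hSRY-ON. Here too the groups did not overlap, with a change of 0.32 (SE 0.11, limma adjusted p = 0.0736). Under other processing Mrpl33 was called higher in 4 and Mrps9 in 2 of 16 alternatives, among them the fit without background correction.

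The 4 genes with the smallest fitted change were Mrpl4, Mrpl9, Mrpl24 and Mrpl55, all of the large subunit. Mrpl4 read 10.36, 10.40 and 10.37 in hSRY-OFF and 10.37, 10.27 and 10.46 in hSRY-ON. The means were equal at 10.37, and the 95% confidence interval of the change ran from -0.27 to 0.25. The intervals of the others ran from -0.29 to 0.31 for Mrpl9, from -0.39 to 0.41 for Mrpl24 and from -0.38 to 0.42 for Mrpl55. A change of 2-fold lies outside all 4 intervals.

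**Figure D3:**
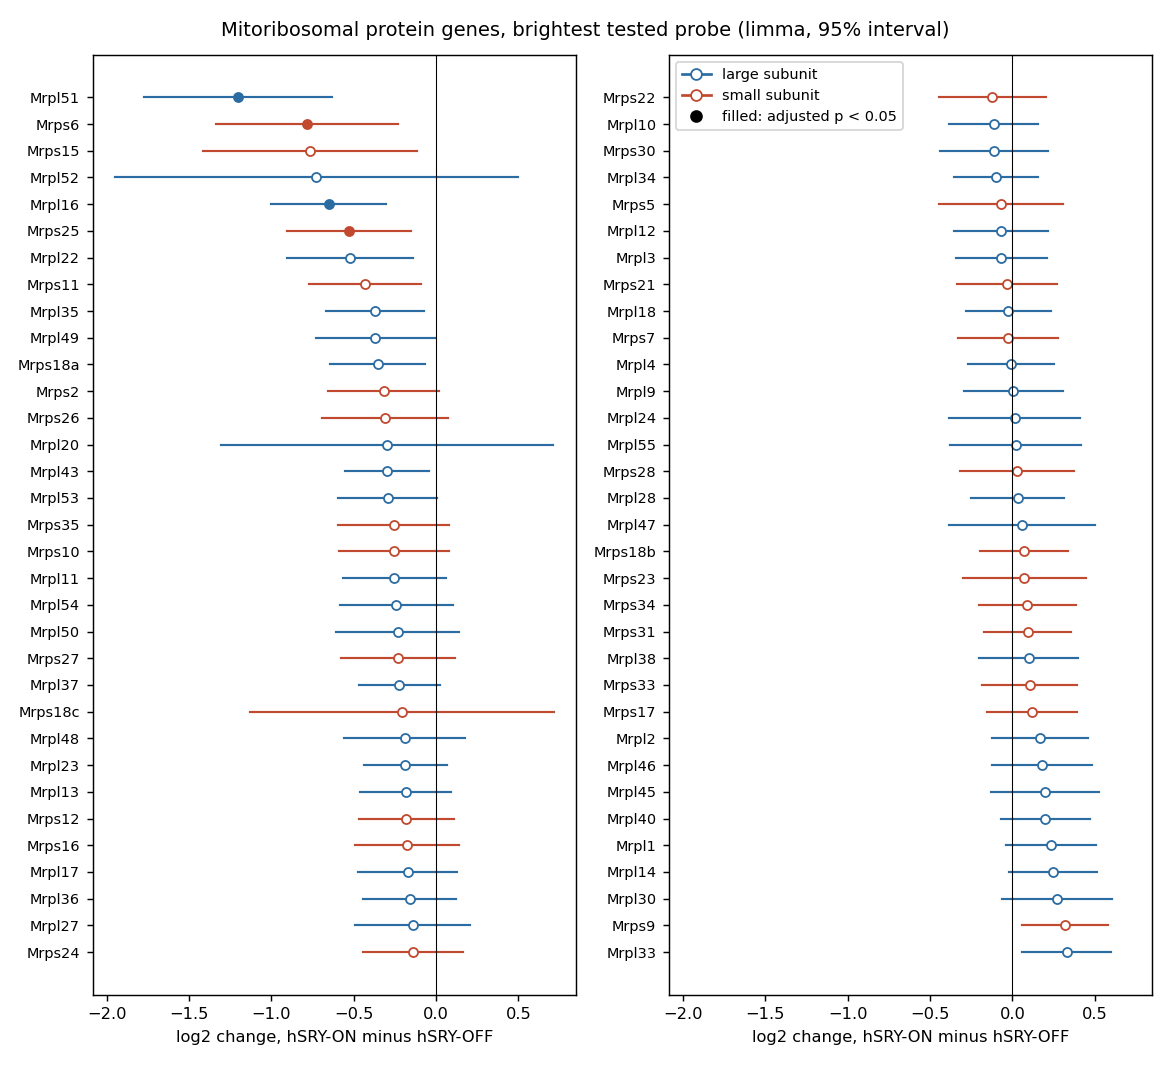
Fitted log2 change, hSRY-ON minus hSRY-OFF, with its 95% confidence interval for each of the 66 genes by its brightest tested probe, ordered from the lowest to the highest, with the large subunit in blue and the small subunit in red. Filled points passed an adjusted p under 0.05 in limma, and these are Mrpl51, Mrps6, Mrpl16 and Mrps25.

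Calls were found in both subunits and in both evolutionary classes. Of all probes tested 13.3% were called lower. Of the 52 probes of the large subunit 5 (9.62%) were called lower, with a median change of -0.17. Of the 34 probes of the small subunit 3 (8.82%) were called lower, with a median of -0.16. Among the proteins of bacterial ancestry 3 of 50 probes (6.0%) were called lower and the median change was -0.13. Among those specific to mitochondria it was 5 of 36 probes (13.9%), 3 of them of Mrpl49, with a median of -0.23. Between the classes no difference was tested. The 3 mammalian versions of bacterial protein S18 did not pass the test. Mrps18a, in the large subunit, changed by -0.36 (limma adjusted p = 0.0713), from 11.20 ± 0.07 (SD, n = 3) to 10.85 ± 0.14 (SD, n = 3). Mrps18b changed by 0.07 on its brightest probe (limma adjusted p = 0.672) and by 0.17 on the other, and Mrps18c by -0.21 (limma adjusted p = 0.722). Mrps30, the other large-subunit gene with a small-subunit name, changed by -0.11 (limma adjusted p = 0.574).

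Several genes were read more than once. Among 16 genes with several tested probes, all probes of a gene had changes of the same sign in 15, and Mrps31 was the exception, from -0.15 to 0.09. In 4 genes some probes were called and some not, namely Mrpl49, Mrpl51, Mrps7 and Mrps25. The probes of these genes lay 1.09 apart in Mrpl51, 0.63 in Mrpl49, 0.59 in Mrps7 and 0.24 in Mrps25. Whether such probes read different transcripts of the gene was not tested. At the other end, the probe pair of Mrpl43 gave -0.30 and -0.29, and that of Mrps11 differed by 0.04.

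**Figure D4:**
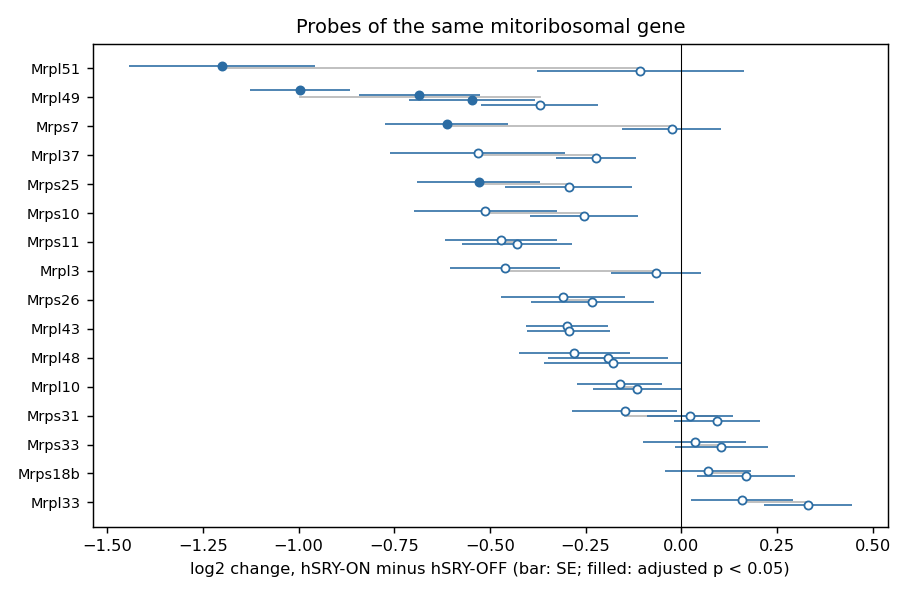
Fitted log2 changes, hSRY-ON minus hSRY-OFF, of the separate probes of the 16 genes with several tested probes, with bars for the SE and filled points for an adjusted p under 0.05 in limma. The probes of Mrpl51 and Mrps7 lie far apart, while those of Mrps11 and Mrpl43 nearly coincide.

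Members that could not be tested are accounted for as follows. Of the 19 untested probes, 15 were not detected on any array, and 13 of the 19 belonged to genes that had another tested probe. No probe could be tested for Mrpl15, Mrpl19, Mrpl21, Mrpl32, Mrpl39 and Mrps14. The probe of Mrpl15 was detected on 2 hSRY-OFF arrays, and those of the other 5 genes on none. Of the tested probes, 83 were detected on all 6 arrays.

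The arrays did not contribute equally. The median over the 86 member probes was 10.38, 10.38 and 10.50 in hSRY-OFF and 10.35, 10.07 and 10.30 in hSRY-ON, while the normalization held the median of all tested probes at 8.31 on each array. The lowest of these values was that of hSRY-ON replicate 2. It held the lowest of the 6 values in 46 of the member probes (53.5%), beside 22.0% of all probes. Without this array the median change of the members was -0.08 in place of -0.17. The hSRY-ON arrays varied more among themselves. The SD was larger in hSRY-ON for 66 member probes (76.7%), close to the 73.7% of all probes, and the median SD was 0.17 in hSRY-ON and 0.10 in hSRY-OFF.

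In 3 probes, picked out after their values were seen, the hSRY-ON arrays were far apart. Mrpl52 read 8.89, 6.79 and 7.26 in hSRY-ON and 8.01, 8.26 and 8.84 in hSRY-OFF. Mrpl20 read 9.06, 7.51 and 7.70 against 8.09, 8.16 and 8.91, and Mrps18c read 9.38, 7.90 and 8.23 against 8.34, 8.67 and 9.12. In each of them hSRY-ON replicate 1 was the highest of the 6 arrays and hSRY-ON replicate 2 the lowest, and hSRY-OFF replicate 3 was the highest of its group. Their changes of -0.73, -0.30 and -0.21 carried SEs of 0.52, 0.43 and 0.39. Their 95% confidence intervals ran from -1.95 to 0.50, from -1.31 to 0.71 and from -1.13 to 0.72, and a 2-fold fall lies inside all 3. Without hSRY-ON replicate 1 Mrpl52 changed by -1.35 and was called lower (limma adjusted p = 0.0150), in 1 of 16 alternatives. Mrpl20 and Mrps18c were called in none.

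Some proteins of the mitoribosome stood on the array under symbols outside the pattern. Of 7 such genes listed 6 were tested, and 1 was called, where 27.9% of all genes were called. This was Mrp63, the older symbol of the large-subunit gene Mrpl57. It read 7.02, 7.02 and 6.65 in hSRY-OFF and 6.06, 5.75 and 6.23 in hSRY-ON, with no overlap, and its change was -0.89 (SE 0.17, limma adjusted p = 0.0120). The call was lost without hSRY-OFF replicate 1 or 2 (limma adjusted p = 0.0546 and 0.0548), and the change was -0.34 without background correction. The others were not called. Ptcd3 changed by -0.32, Ict1, whose product frees stalled ribosomes, by -0.14, and Aurkaip1 by -0.02. The changes of Dap3, which encodes a GTP-binding protein of the small subunit, and Chchd1 were 0.06 and 0.11. A further gene from outside that list, D10Ertd322e, which the RefSeq synonyms give as Mrpl42, changed by -0.08 (limma adjusted p = 0.678). The probe of Gadd45gip1 was too dim to test, and Mrpl41, Mrpl44 and Mrps36 were not found under any symbol or synonym.

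The proteins that work with the mitoribosome were examined by lists. Of all genes tested, 27.9% were called by their brightest probe. Of 9 translation factors tested 2 were called, both lower, and the median change was -0.33. Mrrf, which recycles the ribosome after termination, read 8.45, 8.47 and 8.41 in hSRY-OFF and 7.85, 7.27 and 7.73 in hSRY-ON, a change of -0.83 (SE 0.17, limma adjusted p = 0.0134). Gfm1, the mitochondrial elongation factor that moves the ribosome along the messenger RNA, changed by -0.78 (limma adjusted p = 0.0411). The groups were apart in both genes. The Mrrf call was lost without hSRY-OFF replicate 1 or 2 (limma adjusted p = 0.0544 and 0.0559), and the Gfm1 call in 5 of the 6 fits with an array left out (up to 0.137) and without background correction. Of 19 assembly and ribosomal RNA factors 2 were called, both higher, with a list median of 0.01. Mterfd2, now Mterf4, which guides a methyltransferase to the large subunit, rose from 10.43 ± 0.08 to 10.97 ± 0.10 (SD, n = 3 each, limma adjusted p = 0.0173). Mett11d1, now Mettl17, which serves assembly of the small subunit, changed by 0.47 (limma adjusted p = 0.0417). With an array left out, the first call was lost in 3 and the second in 5 of 6 fits, with adjusted p-values of up to 0.0737 and 0.146. No gene was called by limma among 11 mitochondrial tRNA synthetases, with 1 at an unadjusted p under 0.05, or among 9 genes of mitochondrial DNA transcription and replication, with 2 at that p. In these lists the smallest p-values belonged to Vars2 (0.34) and Iars2 (0.44), and to Tfb2m (0.32) and Peo1, now Twnk (-0.45), where the numbers are changes.

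For comparison, the larger sets of related genes were also little changed, where 27.9% of all genes were called. Of 55 cytosolic ribosomal protein genes tested 2 were called, with a median change of -0.08. These genes are bright, with a median log2 level of 13.89 beside 8.66 for all genes tested. Whether signals near the top of the scale, at 15.48, limited their changes was not tested. Rpl3l rose by 1.06 near the detection limit (limma adjusted p = 0.0332), or by 0.36 without background correction, and Rpl28 fell by 0.38 (limma adjusted p = 0.0417). Each call held in 1 of the 6 fits with an array left out, with adjusted p-values of up to 0.114 and 0.155. Of 66 genes for subunits of the respiratory chain and ATP synthase 5 were called, 2 higher and 3 lower, with a median of -0.09. Among those that fell was Cox4i2, an isoform of a cytochrome oxidase subunit that is typical of lung, with a change of -1.28 (limma adjusted p = 0.00900). Atp5o changed by -0.82 (limma adjusted p = 0.00994). No probe for a gene of mitochondrial DNA itself was found on the array by symbol. By contrast, of 15 proliferation genes 12 were called lower and 1 higher, with a median of -1.39. The replication genes Mcm3 and Mcm6 changed by -1.70 and -1.44 (limma adjusted p = 0.00397 and 0.00618).

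**Figure D5:**
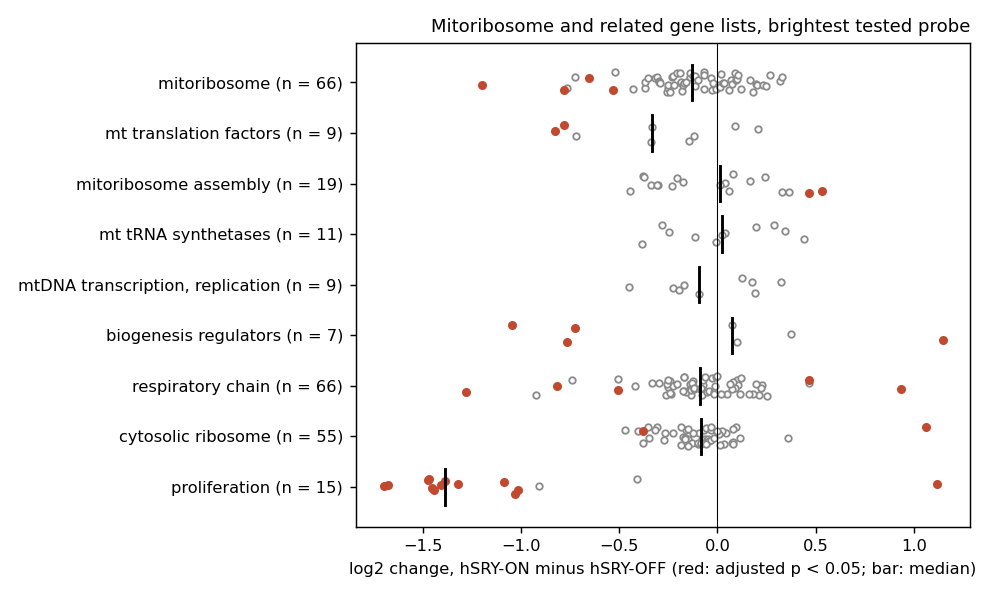
Fitted log2 changes, hSRY-ON minus hSRY-OFF, of single genes by their brightest tested probe for the mitoribosome and 8 related lists, with red points for an adjusted p under 0.05 in limma and black bars for list medians. The points of the mitoribosome, the respiratory chain and the cytosolic ribosome gather near 0, with medians of -0.13, -0.09 and -0.08, while the proliferation genes lie lower, at a median of -1.39.

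Regulators of mitochondrial biogenesis changed in both directions. Of 7 tested, 1 was called higher and 3 lower, beside 27.9% of all genes called in either direction. Gabpa and Gabpb1 encode the subunits of the GA-binding protein, the factor of the ETS motif. Gabpb1 read 7.83, 8.10 and 7.87 in hSRY-OFF and 6.99, 6.72 and 6.96 in hSRY-ON, a change of -1.04 (SE 0.14, limma adjusted p = 0.00333). Gabpa read 6.74, 6.95 and 6.57 against 6.33, 5.93 and 5.82, a change of -0.73 (SE 0.18, limma adjusted p = 0.0234). All hSRY-ON values of both genes lay below all hSRY-OFF values. The Gabpb1 call held with any array left out, and that of Gabpa was lost without hSRY-OFF replicate 1 or 2 or hSRY-ON replicate 2 (limma adjusted p = 0.0798, 0.0913 and 0.0698). Ppargc1a, the coactivator that raises mitochondrial gene expression, rose from 5.58 ± 0.23 to 6.73 ± 0.28 (SD, n = 3 each), a change of 1.15 (limma adjusted p = 0.00645). Without background correction the changes were 0.40 for Ppargc1a, -0.57 for Gabpb1 and -0.27 for Gabpa, and all 3 were called there too. Myc, a growth regulator detected on 1 of the hSRY-ON arrays, changed by -0.77 (limma adjusted p = 0.0183), and its call was lost without hSRY-OFF replicate 1 or 2 (0.0665 and 0.0753) or without background correction. Nrf1, whose product binds the NRF1 motif, changed by 0.07 (limma adjusted p = 0.712), with a 95% confidence interval from -0.24 to 0.39. The probe of Yy1 was too dim to test.

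The promoter motifs were set beside the changes of the 59 genes that had both. The 22 genes with an ETS motif had a median change of -0.17 and 1 call, that of Mrpl51, and the 37 without it a median of -0.11 and 3 calls. The median was -0.23 for 11 genes with a YY1 motif and -0.08 for 48 without. For NRF1 the medians were -0.11 with the motif (5 genes) and -0.14 without it (54 genes). For the E-box they were -0.21 with it (5 genes) and -0.12 without it (54 genes). No difference between these groups was tested.

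Many members stood head to head with another gene, that is, on opposite strands with their starts within 1000 bases. This held for 22 of 63 members (34.9%) and for 8.04% of 17491 protein-coding genes. For 15 of these members both genes were tested, with Mrpl46 and Mrps11, each the partner of the other, counted from both sides. Beside 27.9% of all genes called, 1 partner was called. This was Ncapd2, which encodes a subunit of condensin, the complex that compacts mitotic chromosomes, and whose start lies 614 bases from that of Mrpl51. Ncapd2 read 9.07, 8.88 and 8.89 in hSRY-OFF and 7.32, 7.61 and 8.30 in hSRY-ON. Its change was -1.20 (SE 0.25, limma adjusted p = 0.0136), the same to 2 decimals as that of Mrpl51. The Ncapd2 call was lost without hSRY-OFF replicate 1 (limma adjusted p = 0.0564). The order of the hSRY-ON arrays was not the same, since replicate 1 was the highest for Mrpl51 and the lowest for Ncapd2. Mrpl46 and Mrps11, members whose starts lie 42 bases apart, gave changes of 0.18 (limma adjusted p = 0.333) and -0.43 (limma adjusted p = 0.0640), and neither passed the test. The partner of Mrpl43 is Twnk, at 116 bases, with changes of -0.30 and -0.45 that did not pass it either.

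Several marker genes of cell types and states differed between the groups, where 27.9% of all genes were called. Beside the proliferation genes, whose summed intensity was 18366 to 22785 in hSRY-OFF and 6914 to 12918 in hSRY-ON, 5 of 7 macrophage genes tested were higher and none was lower in hSRY-ON. The sum of the macrophage genes was 24378 to 26475 in hSRY-OFF and 34507 to 42205 in hSRY-ON. Most of both sums came from Lyz2, the brightest of these genes, with log2 means of 14.44 in hSRY-OFF and 14.84 in hSRY-ON. Of 9 cardiac muscle genes, 2 were higher and 3 lower, with sums of 8595 to 11699 and 6344 to 11986 that overlap, and Pln and Ryr2 were not detected. Nppa weighs on that overlap, at 12.32, 12.39 and 9.30 in hSRY-ON and 5.11, 5.32 and 6.94 in hSRY-OFF. The changes called higher were 5.55 for Nppa and 1.12 for Myl3. Those called lower were -2.59 for Myl2, -1.94 for Myl4 and -0.88 for Sln. Sums without Nppa were not compared. The 3 liver genes tested were higher, with Alb, Fgb and Ttr not detected on any array. Ahsg and Apoa1 were detected on no hSRY-OFF array, so they passed the filter only through the group where they were high. Trf, detected on every array, changed by 0.53 (limma adjusted p = 0.0436). Of 8 brown adipocyte genes listed 2 were tested, and the dim Cidea was called higher, from a mean of 5.68 to 6.84. Elovl3, Fabp4 and Plin1 were not detected on any array, and Ucp1, Adipoq and Cfd could not be tested. Of the 8 lung epithelium genes Sftpb (0.67, limma adjusted p = 0.00798) and Sftpd (0.39, limma adjusted p = 0.0412), which encode surfactant proteins, were called higher and none lower. The surfactant gene Sftpc went the other way, by -0.25 (limma adjusted p = 0.150), with all hSRY-ON values below all hSRY-OFF values. In that list 6 fitted changes lay above 0 and 2 below. The sum of that list was 112794 to 115883 in hSRY-OFF and 120394 to 130431 in hSRY-ON, without overlap. None of 6 erythroid genes was called by limma, and 1 had an unadjusted p under 0.05. The part of these shifts in the mitoribosomal values was not tested.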

How the data were processed

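RNA of whole lung was amplified, biotin-labelled and read on Illumina MouseRef-8 BeadChips, 1 array per mouse. A chip holds several arrays, and which mice shared one is not given in the sources used here. The authors deposited an intensity (the mean bead signal, linear) and a detection p-value (the share of negative controls brighter than the probe) for each probe and array. The deposited intensities were neither corrected for background nor normalized, with array medians of 177.1 to 204.0. The software that summarised the beads is not given in the sources used here. The study's methods name the count-based package TCC and the submitters' processing notes name limma. Since the values are intensities, limma 3.58.1 in R 4.3.3 was used.

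Background came from the detection p-values (normexp, offset 16), followed by quantile normalization and log2. Kept were 13841 of 25697 probes, those detected (p under 0.05) on 3 or more of the 6 arrays. Groups came from the sample labels. The fit (lmFit, eBayes) had no covariate, with Benjamini-Hochberg adjustment over all kept probes and a threshold of 0.05. Simulated data with known changes were used to test these steps. For a probe detected in only 1 group the fold is a bound, the mean of that group against the mean, per array of the other, of the higher of its own value and the lowest detected value. A gene in a list is read by its kept probe with the highest mean. Quantile normalization removes any overall shift between arrays.

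The members, lists and tests were chosen with earlier results of these data known. Named were called members with the 10 largest changes each way, the 4 with the smallest change, genes whose probes differed in call, untested members, Mrps18a to c, Mrps30, Mrps36, members under other symbols and the 2 smallest p-values of each related list. The lists of cell type markers were not held to the last of these rules. Further genes were named after their values were seen. Alternatives were other background corrections, normalizations, filters, thresholds and variance models, array weights, a replicate block and each array left out. Promoters and gene starts are from RefSeq (GRCm38.p6), with 1 promoter per gene, the first listed. Of the members 9 had none in the table used.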

Additional observations from a re-analysis of the deposited data

How the results depend on the processing

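All values here are counts of member probes called at an adjusted p under 0.05 in limma, or log2 changes. The 8 calls, all lower, became 17 (15 lower, 2 higher) without background correction, 15 (14 lower, 1 higher) without it and with median scaling, 16 (14 lower, 2 higher) with a variance trend and robust estimation, 5 (5 lower) with cyclic loess, and 1 (lower) at an adjusted p under 0.01. Median scaling alone gave 10 lower and 1 higher. In the main fit 13.3% of all probes were called lower. The share was 15.0% without background correction, 15.1% without it and with median scaling, and 15.1% with a variance trend and robust estimation. In the fits without background correction or with a variance trend, members were called lower no less often than all probes. With 1 array left out the counts ran from 2 to 11, all lower. The largest counts came without hSRY-ON replicate 1 and the smallest without hSRY-OFF replicate 1 or 2 or hSRY-ON replicate 2. The share of all probes called moved as well, from 12.1% to 32.1% in these fits. The cause of these shifts was not tested. The median change of the members stayed below 0 in every alternative, from -0.20 to -0.08.

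The replicate numbers gave no sign of paired arrays. Deviations from the group means of arrays with the same number correlated at -0.11, 0.10 and -0.09. Over all pairs of an hSRY-OFF and an hSRY-ON array the correlations ran from -0.11 to 0.16. With so few arrays these values cannot show whether any shared a litter or a chip. With the replicate number as a block 4 member probes were called, 4 of them lower, and the calls of Mrps6, Mrps7 and Mrps25 and 1 of those of Mrpl49 were lost.

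Of the 8 called member probes 2 were called at an adjusted p under 0.05 in all 16 alternatives, and 4 in all 10 that kept every array. The 2 were 1 probe each of Mrpl49 (changes of -1.08 to -0.49) and Mrpl51 (-1.42 to -0.44). At the stricter threshold of 0.01, which is not among the 16, only that Mrpl49 probe was called. Over 59 probes named in the text, 999 single values under an alternative, the stricter threshold included, kept direction and side of the threshold in 827 cases, lost it in 103, gained it in 39 and changed sign in 30.

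No value that changed sign was called. With median scaling the changes were 0.0253 for Mrpl4, -0.0351 for Mrpl55, 0.0168 for the brighter Mrpl3 probe, 0.0260 for the brighter Mrps7 probe and 0.0410 for Aurkaip1. Cyclic loess gave 0.0243 for Mrpl4, 0.0176 for that Mrps7 probe and 0.0139 for Aurkaip1. Without background correction and with median scaling Mrpl55 was at -0.0589, Mrpl9 at -0.0189 and Mrpl24 at -0.0105. With 1 array left out the changes ran from -0.0512 to 0.0403 for Mrpl4, from -0.10 to 0.14 for Mrpl55, from -0.40 to 0.0664 for the dimmer Mrpl51 probe, from -0.0914 to 0.0776 for Mrpl9, from -0.65 to 0.0931 for Mrps18c, from -0.12 to 0.13 for Mrpl24, from -0.10 to 0.0399 for that Mrps7 probe, from -0.0271 to 0.15 for Nrf1, from -0.26 to 0.0322 for Ict1 and from -0.11 to 0.0638 for Aurkaip1.

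Signals close to background limit the dim probes. No tested probe was left for 6 members, Yy1 and Gadd45gip1, and changes of dim probes are understated on the log2 scale with an offset.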
